A study of Bos taurus with 2 samples.

Results

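Expression of 48 genes of muscle excitation, calcium handling and calcium/calmodulin signaling was examined in muzzle tissue of Hanwoo, the native Korean cattle. The genes were taken by symbol from a list of members of these processes, which was chosen with earlier results of these data known. Probes could be assigned to 30 of the 48 genes through the accession that each probe carries, out of 9648 genes named in this way on the array. The other 18 genes, RYR1, RYR3, CACNA1S, CACNG6, STAC3, JPH1, JPH2, TRDN, SRL, ATP2A2, SLN, MUSK, RAPSN, SCN4A, ATP1B1, CALM2, CAMK4 and ITPR1, were not analysed here. The light-muzzle group was 1 female Hanwoo with a yellow nose and the dark-muzzle group was 1 female Hanwoo with a black nose. Both animals were 30 months old, and no treatment is named in the labels. The tissue was the front part of the muzzle, a piece that can hold epidermis, dermis, glands, nerves, vessels and muscle. Total RNA of each cow was labeled with Cy3 and hybridized to its own 1-color Agilent bovine array, and both arrays were on the same slide. The study compared these animals to find genes that accompany dark pigment of the muzzle, and it placed CAMK2A and CAMK2B among its melanogenesis-associated genes.

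In skeletal muscle, acetylcholine released by the motor nerve opens nicotinic receptors at the end plate, and sodium and chloride channels shape the action potential that follows. The action potential is sensed in the transverse tubule by the L-type calcium channel, which opens ryanodine receptors in the adjoining sarcoplasmic reticulum. The calcium thus set free starts contraction and is pumped back by SERCA enzymes, to be held there by calsequestrin and related proteins. Calcium bound to calmodulin also activates the CAMK2 kinases and the phosphatase calcineurin. Some CAMK2 isoforms are best known from brain and others occur in most tissues.

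Levels below are log2 processed signals, an intensity after background subtraction, with the 75th percentile of each array set to 0. A log2 ratio is the level in dark muzzle minus that in light muzzle, averaged over those probes of a gene that stood well above background in both cows. The error given after ± is the scanner software's own error of the signals, carried into the ratio, so it covers the reading of the spots and not the difference between animals. There was 1 array per group, so no comparison of the arrays has a replicate check and no test was made. Processed signals were well above background for 78.8% of the noncontrol spots in light muzzle and 81.9% in dark muzzle, and 0 spots were saturated.

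The 30 genes were covered by 65 probes, of which 59 were well above background on both arrays, 4 on the dark-muzzle array alone and 2 on the light-muzzle array alone. Thus every one of the 30 genes had a ratio measured in both cows. Since the genes were chosen with earlier results of these data known, the shares that follow describe the list and are not a test of it. Among the genes described below, 15 of 30 were higher by 2-fold or more in dark muzzle, against 9.86% of the 8914 named genes with a value. Both genes that were at least 2-fold lower, ATP2A3 and PVALB, belong to calcium reuptake and buffering (2 of 30), against 6.47% of all named genes. CASQ1, JSRP1, HRC, PLN, CLCN1 and CAMK2A were at least 8-fold higher (6 of 30), against 1.35% of all named genes. Some of these depended on the treatment of dim signals. Under normexp background correction PLN was 2.96 and CAMK2A 2.17, both short of 8-fold. With levels raised to the detection limit CLCN1 was 2.77 and CAMK2A 2.56, also short of it. The median log2 ratio over the 30 genes was 1.12, and over all named genes 0.065. By role, the medians were 1.75 for the voltage sensor and release channel (5 genes), 2.97 for calcium storage and reuptake (7) and 1.34 for the neuromuscular junction (5). They were 3.17 for surface excitability (2), 0.46 for calmodulin and its kinases (6), 0.45 for calcineurin (3) and -0.05 for store-operated entry (2, in opposite directions). CACNA1S and the ryanodine receptors RYR1 and RYR3, without an assigned probe, are not among the 5 genes of the voltage sensor and release channel. With the brightest probe of each gene alone, the median was 0.38 for the voltage sensor and release channel and 0.11 for the neuromuscular junction. These are bulk tissue values, in which more cells of a type and more RNA per cell cannot be told apart. On the same arrays, all 17 measured markers of skeletal muscle fibers, mainly sarcomere proteins, were also higher in dark muzzle, with log2 ratios from 2.24 to 3.68.

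**Figure D1:**
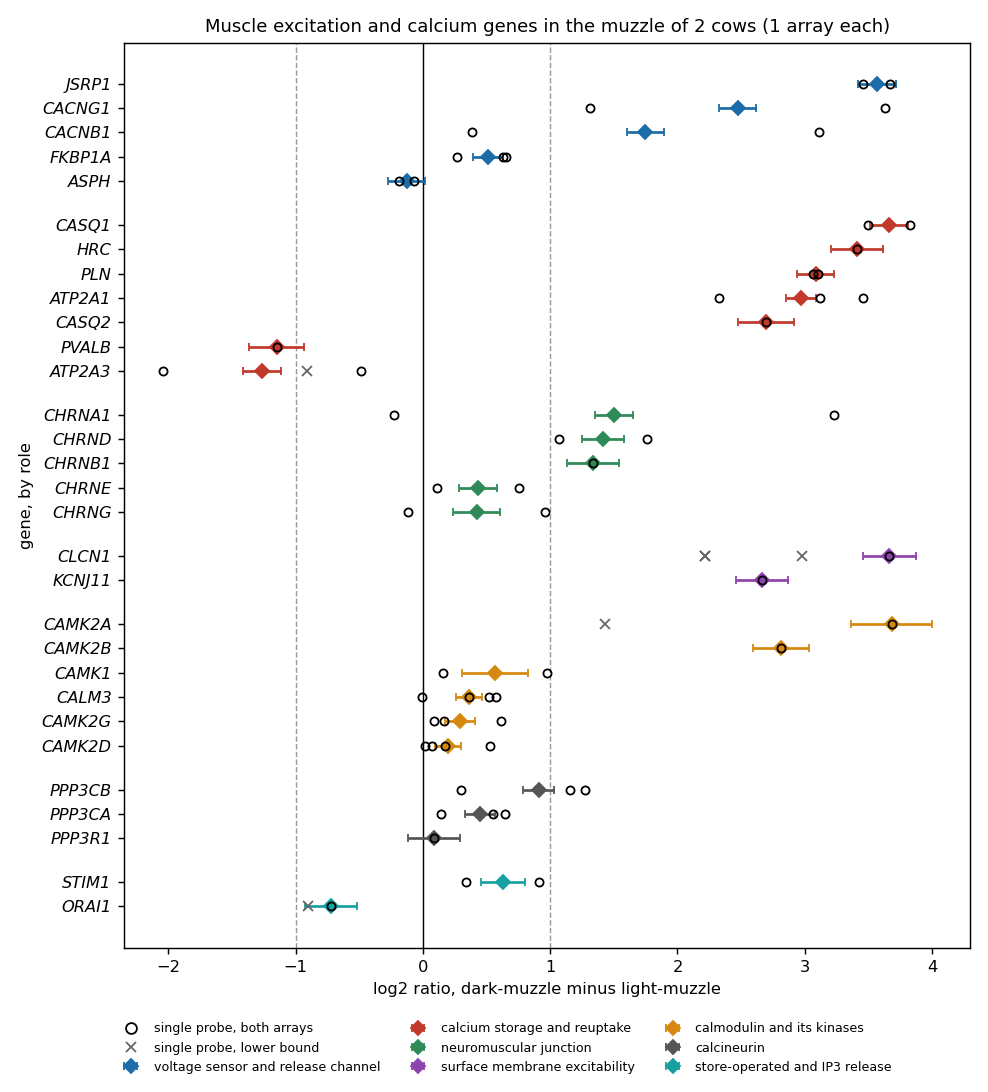
Log2 ratio of each of the 30 genes, dark-muzzle minus light-muzzle, grouped by role. Diamonds are the gene values with the scanner error as bars, open circles are single probes measured on both arrays, crosses are bounds from probes well above background on 1 array, and dashed lines mark 2-fold. Of the 30 genes, 15 lie to the right of the upper line and 2 to the left of the lower one, while the genes of calcineurin and of store-operated entry lie between the lines.

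Among the proteins that couple the action potential to calcium release, JSRP1, a junctional protein that binds the voltage sensor, was 11.8-fold higher in dark muzzle (log2 ratio 3.57 ± 0.15). Its 2 probes had log2 levels of -3.08 and 0.47 in light muzzle and 0.59 and 3.93 in dark muzzle, so both moved by nearly the same amount, 3.67 and 3.46. CACNG1, the gamma subunit of the muscle L-type channel, had a ratio of 2.47 ± 0.14, and CACNB1, its beta subunit, one of 1.75 ± 0.15. For these subunits the probes did not give the same size. A probe of CACNG1 went from 0.04 to 3.67 and the other from 0.02 to 1.33, both past 2-fold. A probe of CACNB1 went from -3.08 to 0.03, a ratio of 3.11, whereas the other went from -0.77 to -0.39, a ratio of 0.38, so the 2-fold difference of CACNB1 rests on 1 of its 2 probes.

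FKBP1A, a protein of most cells that also binds the ryanodine receptor, had a ratio of 0.51 ± 0.12, from 3 probes between 0.26 and 0.65. ASPH, which encodes an aspartyl hydroxylase and, through other transcripts, the reticulum proteins junctin and junctate, had a ratio of -0.13 ± 0.15. It was the lowest of the group, and its difference was smaller than its scanner error. Which ASPH transcripts its 2 probes read was not determined.

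Of the 7 genes of calcium storage and reuptake, 5 were at least 6.46-fold higher in dark muzzle and 2 were more than 2-fold lower. CASQ1, a calsequestrin of skeletal muscle, had the highest ratio of the group at 3.66 ± 0.15. Its probes went from log2 levels of -3.37 and -1.51 in light muzzle to 0.46 and 1.99 in dark muzzle. CASQ2, the calsequestrin of heart and slow fibers, had a single probe, which went from -3.76 to -1.07, a ratio of 2.69 ± 0.22 or 6.46-fold. Under normexp background correction, which raises dim levels, it was 2.06.

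HRC, a histidine-rich calcium-binding protein of the reticulum, went from -0.35 to 3.06 on its single probe, a 10.6-fold difference. ATP2A1, the SERCA pump of fast fibers, was 7.83-fold higher (2.97 ± 0.12), with its 3 probes at 2.33, 3.12 and 3.46. PLN, the inhibitor of SERCA in heart and slow fibers, was 8.48-fold higher (3.08 ± 0.14), and its 2 probes had ratios of 3.06 and 3.11. ATP2A1, tied to fast fibers, and CASQ2 and PLN, tied to slow fibers, were thus all among the higher genes.

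ATP2A3, the SERCA isoform of many non-muscle cells, was lower in dark muzzle, with a ratio of -1.27 ± 0.15. A probe of ATP2A3 went from 1.59 to -0.45 and another from -2.66 to -3.15, ratios of -2.04 and -0.49, and the third was well above background only in light muzzle, at least 1.88-fold lower in dark muzzle. All of its probes had the same direction, but 1 of the 2 measured in both cows was short of 2-fold. PVALB, a calcium buffer that fast fibers share with some neurons, went from -1.96 to -3.11 on its single probe, a ratio of -1.15 ± 0.21. Its direction was opposite to that of CASQ1 and ATP2A1, and it was -0.81, short of 2-fold, under normexp background correction.

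At the neuromuscular junction, the acetylcholine receptor subunits were all higher in dark muzzle by their gene values, between 1.34-fold and 2.83-fold. CHRNB1, the beta subunit, had 1 probe, which went from -1.53 to -0.19, a ratio of 1.34 ± 0.20. CHRND, the delta subunit, had a ratio of 1.42 ± 0.17, with probes at 1.07 and 1.76, both past 2-fold. The probe at 1.07 was dim in light muzzle, at a level of -4.69, and with a scanner error of 0.26 it passed 2-fold by less than its error. Under normexp background correction CHRND was 1.12.

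CHRNA1, the ligand-binding alpha subunit, had the highest gene value of the receptor, 2.83-fold with a scanner error of 0.15 on the log2 scale, but its 2 probes, which carry the same accession, disagreed. One went from -2.68 in light muzzle to 0.54 in dark muzzle, a ratio of 3.23, and the other from 5.28 to 5.05, a ratio of -0.22. The value of CHRNA1 therefore depends on the probe read, and with the probe of higher signal alone it was -0.22. CHRNE, the adult subunit that replaces the fetal one after birth, had a ratio of 0.43 ± 0.15, with probes at 0.11 and 0.76. CHRNG, the fetal subunit, had probes at -0.12 and 0.96 and a ratio of 0.42 ± 0.19, and was the lowest of the group. The ratios of the adult and fetal subunits thus differed by less than the scanner error of either, though the probes of each gene lay further apart than that. Their levels were not alike, at -1.24 for CHRNE and -4.30 for CHRNG in light muzzle.

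Both channel genes of the muscle surface that could be measured were higher in dark muzzle. CLCN1, the chloride channel that sets the resting conductance of muscle, was 12.7-fold higher (3.66 ± 0.21), on a probe that went from -2.36 to 1.31. Its other 3 probes were well above background in dark muzzle only, and were at least 4.64-fold, 4.64-fold and 7.89-fold higher there. With levels raised to the detection limit and all 4 probes averaged, the ratio of CLCN1 was 2.77. KCNJ11, the pore of the ATP-sensitive potassium channel, went from -0.78 to 1.89, a ratio of 2.67 ± 0.20.

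The CAMK2 genes divided into a pair that was higher in dark muzzle and a pair that was close to even. CAMK2A, the alpha kinase best known from brain, had a ratio of 3.68 ± 0.32 and ranked 27 from the top among the 8914 named genes. This was the largest ratio of the 30 genes as reported, but not under normexp, quantile or loess normalization, without the filter on dim probes or with levels raised to the detection limit. The ratio rests on a probe whose intensity was 29.6 in light muzzle against 377 in dark muzzle, and its second probe gave at least 2.70-fold. The light-muzzle level was -5.27, close to the detection limit of -5.78, the lowest such level that still stood well above background, and its error was the largest of the 30. The ratio was 2.17 under normexp background correction and 2.56 with levels raised to the detection limit. CAMK2B, the beta kinase, had 1 probe, whose intensity was 113 in light muzzle against 791 in dark muzzle, with a ratio of 2.82 ± 0.22, or 2.07 under normexp background correction.

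CAMK2D and CAMK2G, the isoforms of most tissues, had ratios of 0.20 ± 0.10 and 0.29 ± 0.12. The 4 probes of CAMK2D had log2 ratios of 0.01, 0.07, 0.17 and 0.53, the last from a level of -2.58 in light muzzle to -2.05 in dark muzzle. The 3 probes of CAMK2G went from -2.30, -0.47 and -0.29 to -1.69, -0.30 and -0.20. No probe of either gene reached 2-fold, and the lowest ratios, 0.01 and 0.09, were well within the scanner error.

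**Figure D2:**
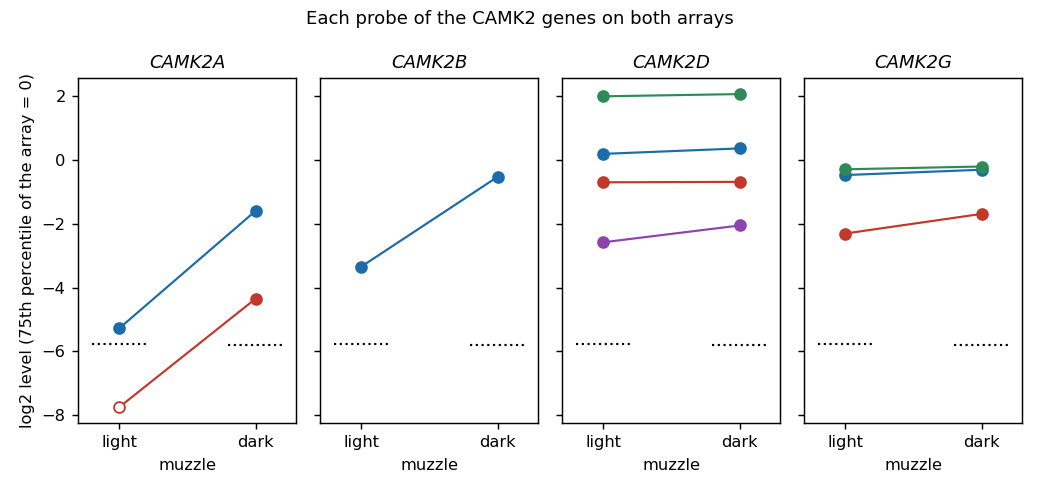
Log2 level of each probe of the 4 CAMK2 genes on the light-muzzle and dark-muzzle arrays. Each line is a probe, filled points were well above background, the open point was not, and dotted lines mark the lowest level well above background on each array. The probes of CAMK2A and CAMK2B climb steeply, from light-muzzle levels of -5.27 and -3.34 for those measured in both cows, and the 7 probes of CAMK2D and CAMK2G differ by 0.62 at most between the arrays.

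The remaining genes of calmodulin signaling stayed below 2-fold. CALM3, one of the genes for calmodulin, had a ratio of 0.36 ± 0.10 over 4 probes between -0.01 and 0.58. CAMK1, a kinase related to CAMK2, had a ratio of 0.56 ± 0.26. Both of its probes were dim in both cows, with levels between -5.34 and -4.25, and the ratio was 0.23 under normexp background correction.

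The genes of calcineurin were between 0.09 and 0.91, and 0 of 3 reached 2-fold. PPP3CB, a catalytic subunit, was highest, with a ratio of 0.91 ± 0.12, and 2 of its 3 probes were past 2-fold at 1.16 and 1.27 while the third was at 0.30. With the median or the brightest of its probes, PPP3CB was at 1.16, past 2-fold. PPP3CA, the other catalytic subunit, had a ratio of 0.45 ± 0.12, and PPP3R1, the regulatory subunit, one of 0.09 ± 0.21 that was smaller than its error. In store-operated calcium entry, STIM1, the calcium sensor of the reticulum, was slightly higher in dark muzzle (0.63 ± 0.17) and ORAI1, the channel that STIM1 opens, was lower (-0.72 ± 0.20). STIM1 had probes at 0.34 and 0.91, the latter dim in light muzzle at a level of -4.83, and its ratio was 0.40 under normexp background correction. ORAI1 went from 2.03 to 1.31 on the probe measured in both cows, and its other probe, well above background in light muzzle alone, had a bound of -0.91.

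**Figure D3:**
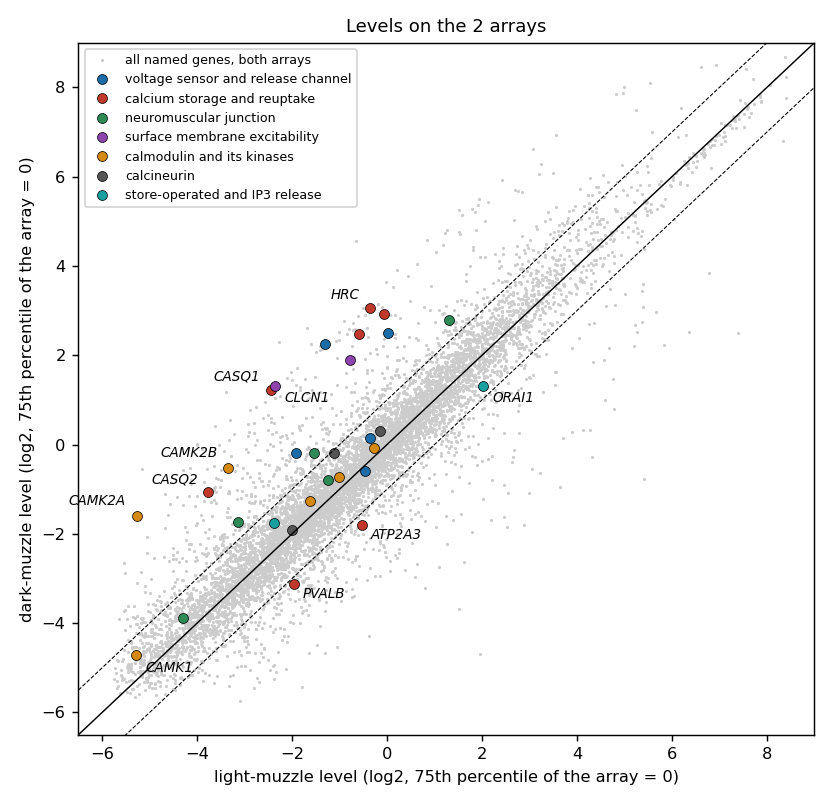
Log2 level of each named gene measured on both arrays, light-muzzle on the horizontal and dark-muzzle on the vertical axis, as the mean over its probes. Gray points are all such genes, colored points the 30 genes by role, the solid line is equality and dashed lines mark 2-fold. The genes of storage and reuptake and of the surface membrane stand above the upper line over a wide range of light-muzzle levels, except ATP2A3 and PVALB, which lie below the lower one.

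For 27 of the 30 genes the ratio was more than 2 times its scanner error, the exceptions being ASPH, PPP3R1 and CAMK2D. Among the 20 genes with more than 1 probe measured in both cows, the SD of the ratio between probes had a median of 0.43, against 0.17 for the 5363 named genes of that kind on the array. In 6 of the 20 genes, ATP2A1, ATP2A3, CACNB1, CACNG1, CHRNA1 and CHRNG, the probes lay more than 1 log2 unit apart, and in 3, CHRNA1, CHRNG and CALM3, they lay on both sides of 0. Counting a gene only where every measured probe was past 2-fold, a rule chosen after seeing the data, left 13 higher genes, without CACNB1 and CHRNA1, and 1 lower gene, PVALB. A gene past 2-fold on 1 measured probe cannot fail this rule. That was so for PVALB and for CASQ2, HRC, CHRNB1, CLCN1, KCNJ11, CAMK2A and CAMK2B.

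Of 88 further genes of the same processes, 57 had a probe and 55 a value. This list too was chosen with earlier results of these data known. For 6 of the 55 the value was only a bound short of 2-fold, so their differences may be larger. In the dark-muzzle cow 19 of the 55 (34.5%) were at least 2-fold higher, against 9.86% of all named genes, and 3 (5.45%) were at least 2-fold lower, against 6.47%, and their median log2 ratio was 0.48. Among the highest were MYOZ1, a Z-disc protein that binds calcineurin (3.72), ATP1B4, a muscle relative of the sodium pump beta subunit (3.61), TMEM38A, a potassium channel of the reticulum (3.53), and CAV3, the caveolin of muscle (3.47). Among the lower ones were ACHE, the enzyme that removes acetylcholine (-1.49), and CALR, a calcium-binding chaperone of the endoplasmic reticulum (-1.22). By process, 8 of 11 further genes of the voltage sensor and release channel were at least 2-fold higher, 4 of 9 of surface excitability and 3 of 8 of calcineurin. The ryanodine receptor RYR2 had no assigned probe and is not among the 11. Of the 7 further genes of calcium storage and reuptake, 1 was at least 2-fold higher and 1 lower, with a median of -0.06, whereas 5 of the 7 storage genes described above were higher. Of the 5 further genes of the neuromuscular junction 1 was higher and 1 lower, of the 10 of calmodulin and its kinases 2 were higher, and of the 5 of store-operated and IP3 release 0 were.

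**Figure D4:**
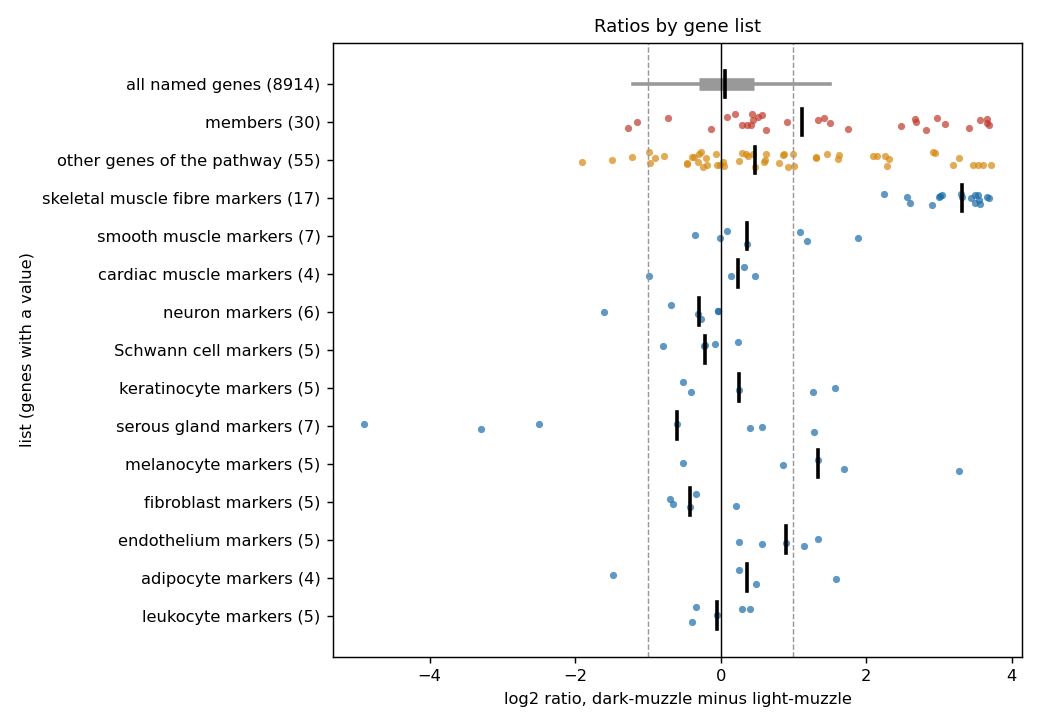
Log2 ratios, dark-muzzle minus light-muzzle, of the genes with a value in each list, with the number of genes in parentheses. Points are genes, black bars are medians, the gray bar of all named genes spans the 25th to 75th and its line the 5th to 95th percentile, and dashed lines mark 2-fold. The 17 skeletal muscle fiber markers lie between 2.24 and 3.68, and the medians of the neuron and smooth muscle markers are -0.29 and 0.36.

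Markers of the cell types that a muzzle piece can hold are given beside these values, and their part in the differences was not tested. For skeletal muscle fibers the markers summed to 193 times the 75th percentile signal in light muzzle and 1386 times in dark muzzle, and all 17 were well above background in both cows. The median ratio of these markers was 3.32. Of the 30 genes, 11 had ratios within the range of these markers, CAMK2A and CAMK2B among them, as did 2.42% of all named genes. CAMK2A, at 3.68 ± 0.32, lay at the upper edge of that range. Under normexp background correction CAMK2A was 2.17 and CAMK2B 2.07, and the range of the markers was not recomputed there. CAMK2A and CAMK2B are also genes of neurons, and which cells gave their signal was not tested. For neurons, NEFL and ELAVL4 had no probe well above background on either array. Of the 6 measured neuron markers, 0 were at least 2-fold higher and 1 was at least 2-fold lower. The ratios of these markers lay between -1.60 and -0.03, with a median of -0.29. The lowest, SYT1, was measured on 1 of its 3 probes. The summed level of the neuron markers was 3.16 in light muzzle and 2.82 in dark muzzle. GAP43 had the highest log2 level of them, 0.91 in light muzzle and 0.87 in dark muzzle.

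Smooth muscle markers summed to 29.4 and 32.4 in the light-muzzle and dark-muzzle cows, with ACTA2 at a ratio of 0.09, while 3 of the 7 were at least 2-fold higher. Cardiac muscle markers summed to 0.437 and 0.426. By their values 0 of 4 reached 2-fold in either direction, but the value of NPPA, 0.48, was only a lower bound and its difference may be larger. The markers of melanocytes, the pigment cells, were at least 2-fold higher for 3 of 5 genes, with a median of 1.34, and their sums were 2.53 and 4.89. PMEL, a protein of the melanosome, had a ratio of 1.70, MITF, the regulator of the lineage, one of 0.86, and DCT, a pigment enzyme, one of -0.52. Of 7 serous gland markers 3 were at least 2-fold lower in dark muzzle, PIP (-4.89), PIGR (-3.29) and CA6 (-2.50), and 1, BPIFA1, was higher (1.29). Their median was -0.60, and their sums, carried mainly by PIP, were 219 in light muzzle and 16.1 in dark muzzle. Medians of the other lists were 0.25 for keratinocytes, -0.21 for Schwann cells, -0.42 for fibroblasts, 0.90 for endothelium, 0.37 for adipocytes and -0.06 for leukocytes.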

How the data were processed

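Muzzle RNA of 1 light-muzzle and 1 dark-muzzle cow was measured on 1 array each, and groups were taken from the nose color in the labels. Per the file headers, the authors made the deposited intensity values, with background subtracted and trends across the array removed, in Agilent Feature Extraction 10.7.3.1. The log2 table that the authors deposited served as an alternative. It differed from the shifted log2 signal by at most 0.000213 for any probe of the 30 genes, and its column medians were -2.47 and -2.45.

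Log2 processed signals were shifted by the 75th percentile of the noncontrol spots of each array, and the 21 noncontrol spots marked as outliers on either array were left out. Of 43639 probes, 20587 (47.2%) took a symbol through the RefSeq table of ARS-UCD2.0, from which no coordinate was used. A gene's value was the mean over its probes well above background on both arrays. If there were none, it was the largest lower bound, the bright level against the higher of the detection limit and the dim level. With 1 array per group no test was possible and precision is limited by the number of arrays. Genes described in full were the CAMK2 genes, the highest and lowest of each role, and those with disagreeing probes. The 48 genes and the lists were chosen with earlier results of these data known. Alternatives were normexp (offset 50, on the median spot signal), quantile and loess (span 0.3) normalization in limma 3.58.1 and R 4.3.3, a 50th percentile shift, no shift, 3 treatments of dim probes, outlier spots kept, the deposited table, other rules for probes and thresholds of 1.5-fold and 3-fold. All else was computed in pandas 2.3.3 and numpy 2.4.6 under Python 3.11.15, and the gene values were tested on simulated data. Values of some further genes are not reported here, no sequences are shown, and the study's PCR and in situ experiments were not analysed here.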

Additional observations from a re-analysis of the deposited data

How the results depend on the processing

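The number of genes higher by 2-fold or more in dark muzzle was 15, and lay between 14 and 16 under the other backgrounds, normalizations, filters and ways of combining probes, with PPP3CB the gene gained. It was 13 where every measured probe had to pass (an alternative chosen after seeing the data, which genes with 1 measured probe past 2-fold cannot fail). It was 17 at a 1.5-fold threshold and 12 at a 3-fold one. The number at least 2-fold lower was 2, but 1 under normexp background correction, 1 where every measured probe had to pass, 3 at 1.5-fold and 0 at 3-fold. The same 17 genes stayed past 2-fold in the same direction under 10 of the 12 alternatives that recomputed gene values, the exceptions being normexp (16, without PVALB) and the brightest probe (15, without CACNB1 and CHRNA1).

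With the brightest probe of each gene the median over the 30 genes was 0.76, and the medians by role were 0.38 for the voltage sensor and release channel (1.75 as reported), 0.11 for the neuromuscular junction (1.34) and 0.67 for calmodulin and its kinases (0.46). CHRNA1 then turned to -0.22, and CHRNG, which was short of 2-fold as reported, to -0.12. Under normexp the medians by role were 1.51 for the voltage sensor and release channel, 1.12 for the neuromuscular junction, 2.85 for surface excitability (3.17 as reported) and 0.31 for calmodulin and its kinases. For surface excitability it was 2.72 with levels raised to the detection limit. Each brightest-probe value is that of 1 of the probes averaged in the report, and the cause of the other changes was not tested. Of 360 recomputed gene values 35 moved by more than the scanner error and 1 further value, past 2-fold as reported, reversed. The median of all named genes lay between 0.01 and 0.10 throughout. Restriction to probes assigned through the RefSeq table was not run separately, since every symbol came through it. Dim signals limit the light-muzzle levels of CAMK2A and of the CLCN1 probes left out of its value, and the levels of CAMK1 in both cows. CASQ2 and CAMK2B, at light-muzzle levels of -3.76 and -3.34, were 2.06 and 2.07 under normexp (2.69 and 2.82 as reported).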
